A study of Mus musculus with 15 samples.

Results

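Autophagy and mitophagy genes were followed by 10 mouse transcripts, Ulk1, Becn1, Atg7, Map1lc3a, Map1lc3b, Gabarapl1, Sqstm1, Optn, Pink1 and Bnip3. They were taken by symbol from a table of 56979 Ensembl identifiers, and all 10 were found and all 10 passed the filter on low values. Levels are in TPM, a length-corrected share of a library's transcripts that can be compared between genes. Polyadenylated RNA of wild type bone marrow cells had been sequenced in 15 libraries, 3 in each of 5 groups. The bone marrow-derived macrophages (BMDM) comprised LPS_NZM (LPS with NZM), LPS (lipopolysaccharide, a bacterial cell wall component that activates macrophages) and Control (vehicle). The BMSC, labelled by that abbreviation, comprised Aged_NZM (H2HO with NZM) and Aged (H2HO). The labels explain neither NZM nor H2HO. They say that NZM followed pretreatment with a model drug, and they give no age of the animals. Since no analysed group had NZM alone, and no BMSC group lacked H2HO, an NZM effect is measured only on top of LPS or H2HO.

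Macroautophagy encloses cytoplasm in a double membrane that fuses with the lysosome. A kinase complex and a lipid kinase complex start the membrane, a ubiquitin-like conjugation system attaches ATG8 proteins (LC3 and GABARAP) to it, and cargo receptors bind both ubiquitylated cargo and ATG8. Mitophagy, the removal of mitochondria, uses the same machinery through the kinase PINK1 or through membrane receptors such as BNIP3. In macrophages the pathway also handles bacteria and limits inflammatory signalling. Several of its proteins are themselves degraded by autophagy, so a transcript level does not measure the rate of the process.

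The transcripts did not move as 1 group. In BMDM the cargo receptor genes Sqstm1 and Optn and the mitophagy receptor gene Bnip3 were 3.01-fold, 2.55-fold and 2.37-fold higher in LPS than in Control, while Atg7, Ulk1 and Pink1 were at 0.435, 0.512 and 0.507 of the Control level. In LPS_NZM these 3 higher genes were at 0.293, 0.384 and 0.342 of the LPS level. In BMSC, Aged_NZM again had less Sqstm1 than Aged, at 0.471 of its level, but 1.43-fold more Bnip3, 1.80-fold more Map1lc3a and 1.59-fold more Pink1. Atg7 was higher with NZM in BMDM and lower with NZM in BMSC.

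The promoters of the 3 genes that were higher in LPS are shown here because they moved together in BMDM and parted in BMSC. RefSeq (GRCm38.p6, an older build than the GRCm39 of the deposited values) had an entry for 8 of the 10 genes, all but Map1lc3a and Becn1. Each sequence is the 250 bases before the listed start, read along the gene, and all 3 genes lie on the minus strand. Capitals mark the only match within these bases to any of the 4 motifs searched. Sites farther from the start were not searched, so an absence holds for these 250 bases only.
Sqstm1, chr11:50210821-50211070: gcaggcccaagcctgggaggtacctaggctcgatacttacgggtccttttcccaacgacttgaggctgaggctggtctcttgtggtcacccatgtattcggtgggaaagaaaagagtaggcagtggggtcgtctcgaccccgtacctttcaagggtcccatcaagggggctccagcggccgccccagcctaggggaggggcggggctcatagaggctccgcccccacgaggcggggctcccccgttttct
Optn, chr2:5064118-5064367: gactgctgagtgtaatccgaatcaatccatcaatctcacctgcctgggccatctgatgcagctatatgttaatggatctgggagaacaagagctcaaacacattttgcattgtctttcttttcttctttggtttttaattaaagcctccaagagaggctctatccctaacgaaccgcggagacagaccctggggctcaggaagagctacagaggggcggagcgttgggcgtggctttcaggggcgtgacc
Bnip3, chr7:138909507-138909756: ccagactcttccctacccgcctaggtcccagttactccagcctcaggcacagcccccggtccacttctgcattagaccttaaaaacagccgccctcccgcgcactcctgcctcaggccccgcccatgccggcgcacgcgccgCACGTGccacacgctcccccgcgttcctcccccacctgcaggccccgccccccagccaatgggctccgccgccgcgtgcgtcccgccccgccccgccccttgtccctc
The motifs were searched on both strands and in the stated letters only, so other forms of them are not marked. They were the antioxidant response element core TGACNNNGC bound by NRF2 and the palindrome CACGTG found in elements bound by TFEB. The others were the hypoxia response core in the form ACGTG and an NF-kB-like decamer (3 G, any 2 bases, 3 T, 2 C). CACGTG contains ACGTG on each strand, so a match to the first is also a match to the hypoxia core. Bnip3 holds CACGTG from 108 bases before its start, and of the other 7 promoters only that of Atg7 holds it, from 132 bases before. The listed Atg7 start lies 27969 bases inside the gene and that of Optn 282 bases inside, and which starts were used in these cells was not measured. Among all 32851 listed promoters, 6.02% hold CACGTG, 16.6% hold ACGTG, 10.2% hold TGACNNNGC and 1.41% hold the decamer. Bnip3 and Atg7, which hold the match before their listed starts, changed in opposite directions in every comparison but that of LPS_NZM with Control. Whether the match bears on either change was not tested.

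Each column summed to the same total, so the depth of a library is unknown and no counting interval is given. The labels do not say whether replicates are separate animals or cultures, so the p-values rest on the spread among 3 libraries, which may be technical. Macrophage markers summed to 21784 to 22294 TPM in LPS_NZM, 19572 to 19732 in LPS and 26081 to 28431 in Control. In BMSC they summed to 18.6 to 21.7 TPM in Aged_NZM and 28.1 to 32.6 in Aged, with Adgre1 and Itgam under 1 TPM. BMSC expressed 7 of 8 stromal markers but Lepr, a marker of marrow stroma, was under 1 TPM. The 8 markers summed to 3365 to 3443 TPM in Aged_NZM and 969 to 1049 TPM in Aged. BMDM libraries also held stromal markers (sums of 2068 to 2794 TPM across the 3 groups, 8 of 8 detected) and neutrophil markers. Aged libraries thus lay below every BMDM library, and the stromal list did not separate the cell types. Fewer cells of a type and less RNA per cell cannot be told apart. Neutrophil markers summed to 1934 to 2323 TPM in LPS_NZM, 2221 to 2444 in LPS and 1488 to 1682 in Control, all LPS libraries lying above all Control libraries. Dendritic cell markers summed to 6.55 to 7.83 TPM in LPS_NZM, 22.7 to 25.03 in LPS and 3.44 to 4.48 in Control. Flt3 and Xcr1 among them were under 1 TPM. Among the BMDM groups Sqstm1, Optn and Bnip3 were highest in LPS, and their means were not higher in LPS_NZM than in Control. Whether the dendritic cell markers bear on these genes was not tested. Endothelial markers summed to 61.6 to 64.5 TPM in LPS_NZM, 25.8 to 28.7 in LPS and 25.1 to 28.2 in Control. Mast cell markers ranged from 1.05 to 469.5 TPM among the Control libraries, and Control replicate 3 held 33.9 TPM of the cytokine transcript Il1b against 2.77 and 0.94 TPM in the other Control libraries. Control replicate 3 also held more Nos2 (4.27 TPM against 0.12 and 0.17) and Acod1 (37.09 TPM against 5.44 and 5.22) than the other Control libraries. The part of these markers and transcripts in the results was not tested, and counts without Control replicate 3 are given below.

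TPM scales also moved between groups. The median log2 change of all tested genes was -0.48 in LPS against Control, 0.40 in LPS_NZM against LPS, -0.07 in LPS_NZM against Control and -0.18 in Aged_NZM against Aged. Changes are on the log2(TPM + 1) scale, which understates those of low genes, and each was also computed after centring every library on its median gene. A gene was called higher or lower at an adjusted p under 0.05 in limma.

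**Figure D1:**
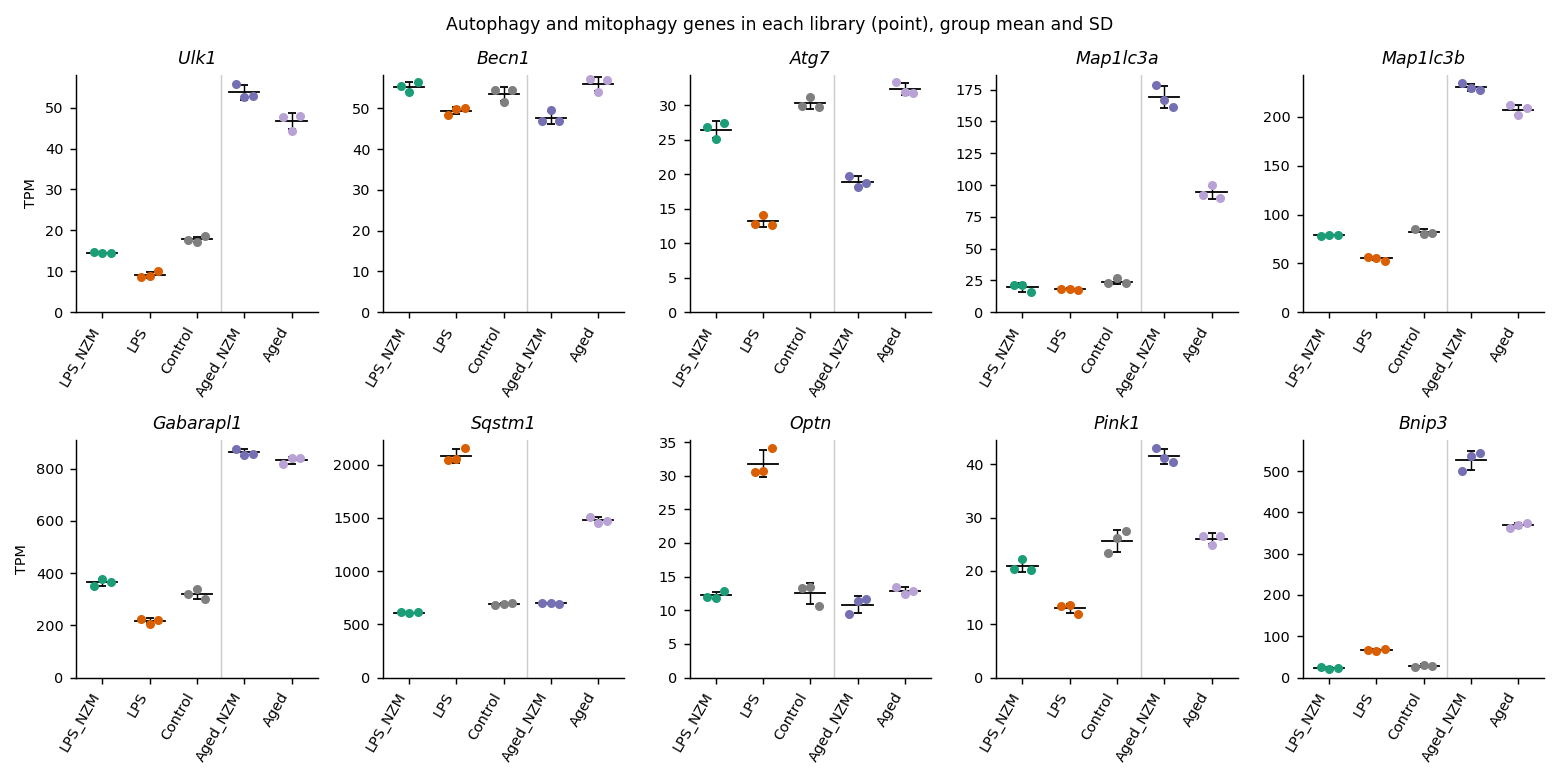
TPM of the 10 genes (vertical axes, each from 0) in 15 libraries (points) of 5 groups, with group means (lines) and SD (bars). Sqstm1 and Optn were highest in LPS, Bnip3, Map1lc3a, Map1lc3b, Gabarapl1 and Ulk1 were highest in BMSC, and Becn1 varied least.

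Ulk1 encodes the kinase that starts autophagosome formation. It read 8.64, 8.77 and 9.97 TPM in LPS libraries, against 17.6, 17.3 and 18.6 TPM in Control (log2 change -0.90, SE 0.06, adjusted p = 4.93e-07). All LPS libraries lay below all Control libraries, and the gene remained lower after centring (-0.35, adjusted p = 0.00112). LPS_NZM libraries read 14.6, 14.4 and 14.6 TPM, between both other groups and overlapping neither (log2 change 0.62, SE 0.06, adjusted p = 8.89e-06 against LPS, and log2 change -0.28, SE 0.06, adjusted p = 0.00557 against Control). The rise over LPS did not pass after centring (0.15, adjusted p = 0.0677). In BMSC it read 55.7, 52.6 and 52.8 TPM in Aged_NZM, against 47.8, 44.4 and 48.0 TPM in Aged (log2 change 0.20, SE 0.05, adjusted p = 0.00401, or 0.36 after centring).

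Becn1 encodes Beclin 1, the scaffold of the lipid kinase complex, and had the narrowest range of group means. Its mean lay between 47.8 TPM in Aged_NZM and 56.0 TPM in Aged, with all BMDM groups in between. It was called lower in LPS at 49.5 ± 0.868 TPM, against 53.6 ± 1.77 TPM in Control (log2 change -0.11, SE 0.04, adjusted p = 0.0194), and this reversed to 0.43 after centring (adjusted p = 6.07e-06). The call was also lost when Control replicate 1, Control replicate 3 or LPS replicate 1 was left out, with adjusted p-values in that order of 0.058, 0.0667 and 0.0647 from limma. The rise in LPS_NZM over LPS (log2 change 0.16, SE 0.04, adjusted p = 0.00331) turned to -0.31 after centring (adjusted p = 7.98e-05). LPS_NZM against Control gave 0.05 (95% interval -0.04 to 0.13, adjusted p = 0.353) and was called higher only after centring (0.13, adjusted p = 0.0262). In BMSC it was lower in Aged_NZM (log2 change -0.22, SE 0.04, adjusted p = 0.00113), which did not pass after centring (-0.07, adjusted p = 0.165).

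Atg7 encodes the E1-like enzyme that activates ATG8 and ATG12 for conjugation. It was lowest in LPS, at 12.8, 14.2 and 12.6 TPM, against 29.9, 31.3 and 29.7 TPM in Control (log2 change -1.14, SE 0.06, adjusted p = 3.65e-08). LPS_NZM libraries held 26.8, 25.1 and 27.5 TPM (log2 change 0.95, SE 0.06, adjusted p = 1.44e-07 against LPS). All 3 LPS libraries lay below both other BMDM groups, and both changes kept their direction and call after centring (-0.60 and 0.49). LPS_NZM remained slightly below Control (log2 change -0.19, SE 0.06, adjusted p = 0.023), a call lost after centring (adjusted p = 0.125), without Control replicate 2 (adjusted p = 0.076) and without LPS_NZM replicate 2 (adjusted p = 0.0891). BMSC went the other way with NZM, at 19.8, 18.2 and 18.7 TPM in Aged_NZM, against 33.4, 31.9 and 31.8 TPM in Aged (log2 change -0.75, SE 0.05, adjusted p = 1.02e-06, or -0.59 after centring). All Aged_NZM libraries were below all Aged libraries.

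Map1lc3a, Map1lc3b and Gabarapl1 encode ATG8 proteins, the LC3 and GABARAP proteins that coat the autophagosome membrane. Map1lc3a was more abundant in BMSC, with 179, 167 and 161 TPM in Aged_NZM and 92.0, 100.4 and 90.1 TPM in Aged (log2 change 0.84, SE 0.05, adjusted p = 5.91e-07). In BMDM it read 21.1, 21.8 and 15.7 TPM in LPS_NZM, 18.3, 18.7 and 17.9 TPM in LPS and 22.6, 26.7 and 23.0 TPM in Control. Every BMSC library was above every BMDM library, and every Aged_NZM library above every Aged library. LPS was called lower than Control (log2 change -0.38, SE 0.11, adjusted p = 0.0102), but the change was 0.17 after centring (adjusted p = 0.23). LPS_NZM overlapped LPS (0.08, 95% interval -0.17 to 0.33, adjusted p = 0.54). That value became -0.39 after centring (adjusted p = 0.0149), 0.22 without LPS_NZM replicate 3 (adjusted p = 0.0251) and -0.0028 without LPS_NZM replicate 2 (adjusted p = 0.985). Against Control, LPS_NZM missed the threshold for Map1lc3a (log2 change -0.30, SE 0.11, adjusted p = 0.0501), and passed it without LPS_NZM replicate 1 (adjusted p = 0.0457) and without LPS_NZM replicate 2 (adjusted p = 0.0295).

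Map1lc3b read 78.4, 78.6 and 79.1 TPM in LPS_NZM, 56.4, 56.0 and 52.9 TPM in LPS and 85.6, 80.5 and 81.2 TPM in Control. LPS was the lowest group without overlap, but its change of -0.57 against Control (adjusted p = 2.70e-07) was close to the shift of the median gene and became -0.03 after centring (adjusted p = 0.585). The rise of 0.51 in LPS_NZM over LPS (adjusted p = 6.93e-07) was likewise 0.04 after centring (adjusted p = 0.353), and LPS_NZM against Control gave -0.06 (95% interval -0.15 to 0.02, adjusted p = 0.189). In BMSC it was higher in Aged_NZM at 230.5 ± 3.54 TPM, against 207 ± 5.30 TPM in Aged (log2 change 0.15, SE 0.03, adjusted p = 0.00282, or 0.31 after centring). Its annotation overlaps Zcchc14 on the other strand, which read 4.78 to 41.65 TPM, and whether the authors' counting used strand is not stated. On the same strand it overlaps the protein-coding entry Gm20388, for which no TPM was listed.

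Gabarapl1 was the most abundant of the 3, at 349, 377 and 367 TPM in LPS_NZM, 224, 207 and 221 TPM in LPS and 319, 339 and 302 TPM in Control. LPS was lowest and LPS_NZM highest, with no overlap among the BMDM groups. The fall with LPS (log2 change -0.55, SE 0.05, adjusted p = 2.27e-06) was -0.0081 after centring (adjusted p = 0.888), while the rise with NZM passed on both scales (log2 change 0.74, SE 0.05, adjusted p = 2.49e-07, or 0.28 after centring). Gabarapl1 was the only one of the 10 genes called higher in LPS_NZM than in Control as deposited (log2 change 0.19, SE 0.05, adjusted p = 0.00996), and quantile normalization ended that call (0.08, adjusted p = 0.213). BMSC held 862 ± 12.7 TPM in Aged_NZM and 832 ± 13.2 TPM in Aged, without a call (0.05, 95% interval -0.02 to 0.12, adjusted p = 0.164) until centring (0.21, adjusted p = 0.000944).

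With Gabarap and Gabarapl2, the other ATG8 genes measured, the family summed to 1050.5 ± 21.1 TPM in LPS_NZM, 815 ± 14.8 in LPS and 1008 ± 18.7 in Control. The sum was 1708 ± 23.1 TPM in Aged_NZM and 1522 ± 16.8 in Aged. Gabarap was the main transcript in BMDM, with 51.7% of the sum in LPS_NZM, 59.1% in LPS and 52.6% in Control. Gabarapl1 was the main one in BMSC, with 50.5% in Aged_NZM and 54.7% in Aged. The share of Map1lc3a was 9.90% in Aged_NZM and 6.19% in Aged, and it stayed between 1.86% and 2.39% in the means of the BMDM groups. These sums and shares are descriptions without a test.

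**Figure D2:**
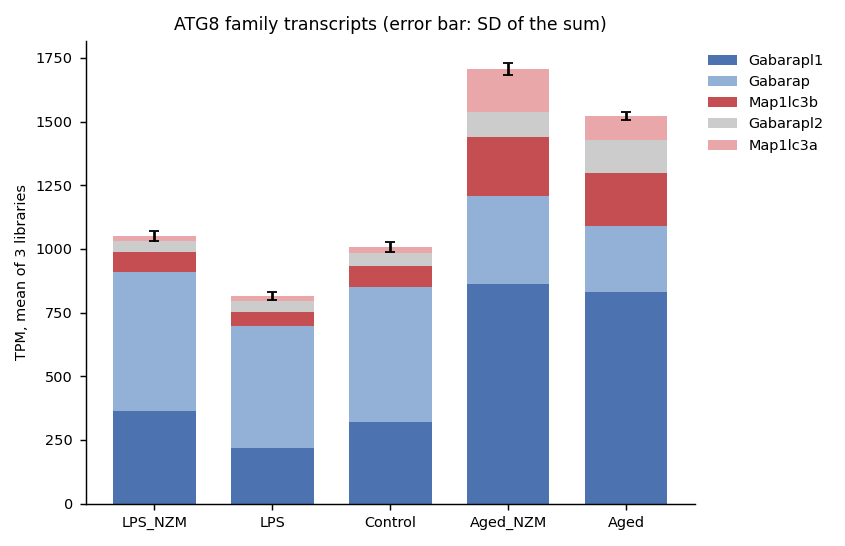
Mean TPM of the ATG8 genes (stacked, vertical axis from 0) in each group, with the SD of the sum over 3 libraries. The sum was lowest in LPS (815 TPM) and highest in Aged_NZM (1708 TPM), and Gabarap took the largest share in BMDM and Gabarapl1 in BMSC.

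Sqstm1 encodes p62, a receptor that links ubiquitylated cargo to ATG8 and also binds KEAP1, the inhibitor of NRF2. It was the most abundant of the 10 transcripts in BMDM and read 2039, 2051 and 2156 TPM in LPS libraries, against 686, 688 and 705 TPM in Control (log2 change 1.59, SE 0.03, adjusted p = 1.02e-11). By mean TPM it ranked 45 among the 13305 identifiers with at least 1 TPM in LPS and 172 of 14118 in Control. LPS_NZM libraries read 611, 609 and 612 TPM (log2 change -1.77, SE 0.03, adjusted p = 5.73e-12 against LPS). They lay below every Control library as well (log2 change -0.18, SE 0.03, adjusted p = 0.000286), a difference of -0.10 after centring (adjusted p = 0.0316). In BMSC it read 697, 701 and 692 TPM in Aged_NZM, against 1506, 1455 and 1474 TPM in Aged (log2 change -1.08, SE 0.03, adjusted p = 5.00e-09). With NZM the gene was thus at 0.293 of its level in BMDM and 0.471 in BMSC, and neither comparison had overlapping groups. Its annotation overlaps Mrnip, which read 0.34 to 7.53 TPM. The TPM ratio of Sqstm1 to Map1lc3b was 7.76 ± 0.0329 in LPS_NZM, 37.8 ± 2.53 in LPS and 8.42 ± 0.359 in Control, and 3.02 ± 0.0442 in Aged_NZM and 7.12 ± 0.0783 in Aged.

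Optn encodes optineurin, a ubiquitin receptor that TBK1 phosphorylates and that acts on bacteria and mitochondria. It read 30.6, 30.7 and 34.1 TPM in LPS, against 13.4, 13.5 and 10.7 TPM in Control (log2 change 1.29, SE 0.09, adjusted p = 3.51e-07), and 11.99, 11.8 and 12.8 TPM in LPS_NZM (log2 change -1.31, SE 0.09, adjusted p = 3.07e-07 against LPS). Every LPS library was above every other library of the series, while LPS_NZM overlapped Control (-0.02, 95% interval -0.22 to 0.17, adjusted p = 0.838). BMSC read 9.46, 11.5 and 11.6 TPM in Aged_NZM and 13.4, 12.4 and 12.9 TPM in Aged (log2 change -0.23, SE 0.08, adjusted p = 0.0283). This small fall did not pass after centring (-0.07, adjusted p = 0.433), without Aged_NZM replicate 1 (adjusted p = 0.083), without Aged replicate 1 (adjusted p = 0.0795) or without Aged replicate 3 (adjusted p = 0.0604).

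Pink1 encodes the kinase that marks damaged mitochondria by phosphorylating ubiquitin. It read 13.4, 13.6 and 12.01 TPM in LPS, against 23.3, 26.2 and 27.4 TPM in Control (log2 change -0.93, SE 0.07, adjusted p = 1.16e-06, or -0.38 after centring). LPS_NZM held 20.4, 22.2 and 20.2 TPM, between both groups, and its rise over LPS (log2 change 0.65, SE 0.07, adjusted p = 1.89e-05) missed the threshold after centring (0.18, adjusted p = 0.0531). Against Control it was lower (log2 change -0.28, SE 0.07, adjusted p = 0.0117), which did not pass after centring (adjusted p = 0.0572). In BMSC it read 43.1, 41.2 and 40.4 TPM in Aged_NZM, against 26.6, 24.95 and 26.6 TPM in Aged (log2 change 0.65, SE 0.05, adjusted p = 1.79e-06, or 0.81 after centring). Aged_NZM was the highest group of the series for Pink1, and Aged overlapped Control.

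Bnip3 encodes an outer mitochondrial membrane receptor that binds ATG8 and is a known target of hypoxia-inducible factor. It read 65.7, 65.0 and 69.4 TPM in LPS, against 24.5, 31.5 and 28.6 TPM in Control (log2 change 1.22, SE 0.09, adjusted p = 8.47e-07). LPS_NZM held 25, 20.3 and 23.1 TPM, all below LPS (log2 change -1.51, SE 0.09, adjusted p = 1.69e-07). It overlapped Control and was called lower there (log2 change -0.29, SE 0.09, adjusted p = 0.0285). That call ended after centring (adjusted p = 0.0939) and when any of 4 libraries was left out. The adjusted p was 0.104 without LPS_NZM replicate 2 and 0.0536 without LPS_NZM replicate 3, and it was 0.102 without Control replicate 2 and 0.0689 without Control replicate 3. BMSC libraries were all higher, at 499, 536 and 543 TPM in Aged_NZM and 362, 369 and 375 TPM in Aged (log2 change 0.51, SE 0.04, adjusted p = 2.35e-06), so NZM libraries were higher there. The paralogue Bnip3l, also a mitophagy receptor gene and named here after its values were seen, did not follow Bnip3 in BMDM. It averaged 23.6 ± 0.782 TPM in LPS libraries, against 44.0 ± 1.67 TPM in Control libraries (log2 change -0.87, SE 0.05, adjusted p = 4.94e-08), so the TPM ratio of Bnip3 to Bnip3l was 2.83 ± 0.152 in LPS and 0.640 ± 0.0691 in Control. Mitochondrially encoded transcripts took 3.94% to 4.25% of TPM in Aged_NZM and 1.40% to 1.47% in Aged, 3.71% to 3.82% in LPS_NZM, 2.92% to 3.09% in LPS and 4.10% to 4.17% in Control. Whether that share bears on Pink1 and Bnip3 was not tested.

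**Figure D3:**
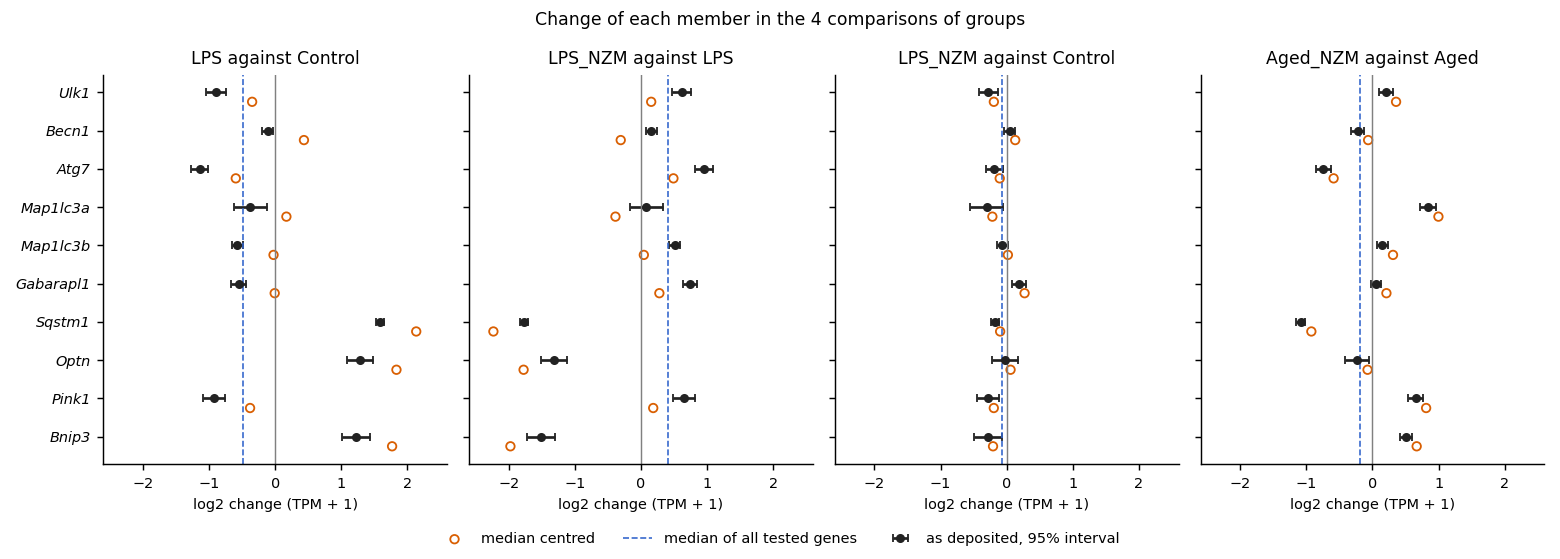
Log2 change of log2(TPM + 1) (horizontal axes) for the 10 genes in 4 comparisons of groups, as deposited with 95% intervals (filled) and after median centring (open). Sqstm1, Optn and Bnip3 lay above 0 in LPS against Control and below 0 in LPS_NZM against LPS on both scales, while Becn1 and Map1lc3a changed sign with the scale.

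The members' values did not overlap between groups for 10 of 10 genes in LPS against Control (81.8% of all tested genes), 9 in LPS_NZM against LPS (79.8%), 7 in LPS_NZM against Control (55.9%) and 10 in Aged_NZM against Aged (73.8%). Counted by calls, LPS against Control gave 3 higher and 7 lower, where 80.8% of all tested genes were called, 15.2% higher and 65.6% lower. After centring, which called 65.5% of all genes, 4 were higher (36.5% of all genes) and 3 lower (29.1%), Becn1 joining the higher genes and Atg7, Ulk1 and Pink1 being the lower ones. In LPS_NZM against LPS, with 77.3% of all genes called or 65.1% after centring, 6 were higher (60.4% of all genes) and 3 lower (16.9%), or 2 higher (29.8%) and 5 lower (35.3%) after centring. Both comparisons share the LPS libraries, and each shares a group with LPS_NZM against Control, so their errors are linked. In LPS_NZM against Control, with 47.7% of all genes called or 47% after centring, 1 was higher (18.6% of all genes) and 5 lower (29.1%), or 2 higher (24.9%) and 2 lower (22%) after centring, and the log2 changes of the 10 genes lay between -0.30 (Map1lc3a) and 0.19 (Gabarapl1). Without Control replicate 3 the counts were 3 higher and 6 lower in LPS against Control, and 1 higher and 4 lower in LPS_NZM against Control. In Aged_NZM against Aged, with 70.5% of all genes called or 66.5% after centring, 5 were higher (21.6% of all genes) and 4 lower (48.9%), or 6 higher (31.1%) and 2 lower (35.4%) after centring. Most of the tested genes were called in 3 of these 4 comparisons, so the counts alone are no result about the 10 genes. The median log2 change of the members was -0.47 in LPS against Control, 0.33 in LPS_NZM against LPS, -0.19 in LPS_NZM against Control and 0.10 in Aged_NZM against Aged.

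A further 74 genes of the pathway in 9 lists, 73 of them tested, were counted for comparison. In LPS against Control 9 were higher, against 15.2% of all tested genes, and 58 lower, against 65.6%, with a median log2 change of -0.54 that was close to the -0.48 of all genes, or 28 higher (36.5% of all genes) and 27 lower (29.1%) after centring. The counts of single lists are to be read against these shares, and nothing particular to a list is drawn from them. All 7 lipid kinase complex genes were lower as deposited, among them Rubcn, an inhibitor of that complex (-1.18), and the catalytic subunit gene Pik3c3 (-0.90), and 4 were lower and 1 higher after centring. Of 15 regulators 11 were lower and 2 higher, or 5 and 4 after centring. The largest fall among them was that of Tfeb, the transcription factor of lysosome and autophagy genes, at 7.98 ± 0.602 TPM in LPS, against 30.8 ± 0.766 TPM in Control (log2 change -1.83, SE 0.06, adjusted p = 7.87e-10). Foxo3, another transcription factor of autophagy genes, fell too (-1.13). Of 7 fusion genes 6 were lower and 1 higher, or 3 and 3 after centring, led by Plekhm1, an adaptor between lysosome and autophagosome (-1.87), and the SNARE gene Stx17 (-1.29).

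Of the initiation kinase list 3 of 4 were lower in LPS (2 after centring, 1 higher), with Ulk2 (-1.58) and Atg13 (-0.83) leading. The ATG9, ATG2 and WIPI list had 7 of 9 lower and 2 higher, or 3 and 4 after centring, led by the lipid transfer gene Atg2b (-0.9996) and the phosphoinositide-binding gene Wipi1 (-0.92). The conjugation list had 7 of 10 lower and 1 higher, or 2 and 6 after centring, led by the protease gene Atg4c (-1.36) and the E2-like gene Atg10 (-0.98). Gabarap (-0.14) and Gabarapl2 (-0.24) were both lower as deposited and both higher after centring. Of 8 other cargo receptors 7 were lower and 1 higher, or 4 and 3 after centring. Their largest falls were those of Retreg1, a receptor for the endoplasmic reticulum (-1.44), and Nbr1, a ubiquitin receptor (-1.25). The exception was Tax1bp1, a ubiquitin receptor named here after its values were seen, at 234 ± 3.05 TPM in LPS libraries, against 98.6 ± 1.49 TPM in Control libraries (log2 change 1.24, SE 0.03, adjusted p = 1.24e-10). Of 11 tested mitophagy genes 8 were lower and 2 higher, or 4 and 4 after centring. Marchf5, a ubiquitin ligase of the outer mitochondrial membrane, was higher at 219.7 ± 2.61 TPM in LPS, against 84.0 ± 3.60 TPM in Control (log2 change 1.38, SE 0.04, adjusted p = 7.70e-10), and Fundc1, a mitophagy receptor gene, was lower (-0.89).

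With NZM in LPS-treated BMDM 58 of the 73 genes were higher (60.4% of all tested genes) and 10 lower (16.9%) than in LPS, or 25 higher (29.8%) and 25 lower (35.3%) after centring, with a median of 0.47 beside 0.40 for all genes. Tfeb was at 39.4 ± 0.569 TPM in LPS_NZM, against 7.98 ± 0.602 TPM in LPS libraries (log2 change 2.17, SE 0.06, adjusted p = 2.19e-10). Plekhm1 (1.78), Foxo3 (1.16), Nrbf2 of the lipid kinase complex (1.11), Tex264, a receptor for the endoplasmic reticulum (0.98), and Ulk2 (0.83) rose on both scales. Marchf5 (-1.52), Tax1bp1 (-1.29), the kinase gene Tbk1 (-1.12) and Atg9a, a membrane protein gene of the early autophagosome (-0.98), fell on both scales. In LPS_NZM against Control 16 were higher (18.6% of all tested genes), 25 lower (29.1%) and 32 without a call, or 22 higher (24.9%) and 18 lower (22%) after centring, with a median of -0.08 beside -0.07 for all genes. Retreg1 (-1.25), Ulk2 (-0.75), Wdfy3 (-0.55) and Wipi1 (-0.52) were among the lower genes, and Vmp1 (0.54), the transcription factor gene Mitf (0.53) and Nrbf2 (0.47) among the higher.

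In BMSC 20 of the 73 genes were higher in Aged_NZM than in Aged (21.6% of all tested genes) and 38 lower (48.9%), or 28 higher (31.1%) and 23 lower (35.4%) after centring, with a median of -0.15 beside -0.18 for all genes. Of the regulators 7 of 15 were higher and 5 lower, or 10 and 3 after centring. Trp53inp2, a nuclear protein that promotes autophagosome formation, was at 42.8 ± 0.616 TPM in Aged_NZM, against 17.4 ± 0.245 TPM in Aged (log2 change 1.25, SE 0.04, adjusted p = 1.48e-08). Deptor, an inhibitor of mTOR, was at 23.3 ± 0.881 TPM in Aged_NZM, against 9.88 ± 0.789 TPM in Aged (log2 change 1.16, SE 0.07, adjusted p = 3.38e-07). Wipi1 (0.84), Gabarap (0.42) and Rb1cc1 of the initiation kinase complex (0.40) also rose. Atg101 of the same complex (-0.50, or -0.34 after centring) and the ATG8 gene Gabarapl2 (-0.38, or -0.22 after centring) fell. The conjugation list had 6 of 10 lower and 1 higher, or 3 and 3 after centring, with Atg16l1 (-0.75) and Atg5 (-0.70), partners in attaching ATG8 to the membrane, leading. Of the other cargo receptors 7 of 8 were lower and 1 higher, or 5 and 1 after centring, Tollip (-0.63) and Tax1bp1 (-0.43) among them. Phb2, an inner mitochondrial membrane protein gene, was lower too (-0.79), as was Wipi2 (-0.59). Of the lipid kinase complex 5 of 7 were lower and none higher, and after centring 1 was lower and 1 higher. Stromal markers summed to 3365 to 3443 TPM in Aged_NZM and 969 to 1049 TPM in Aged, and their part in these changes was not tested.

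**Figure D4:**
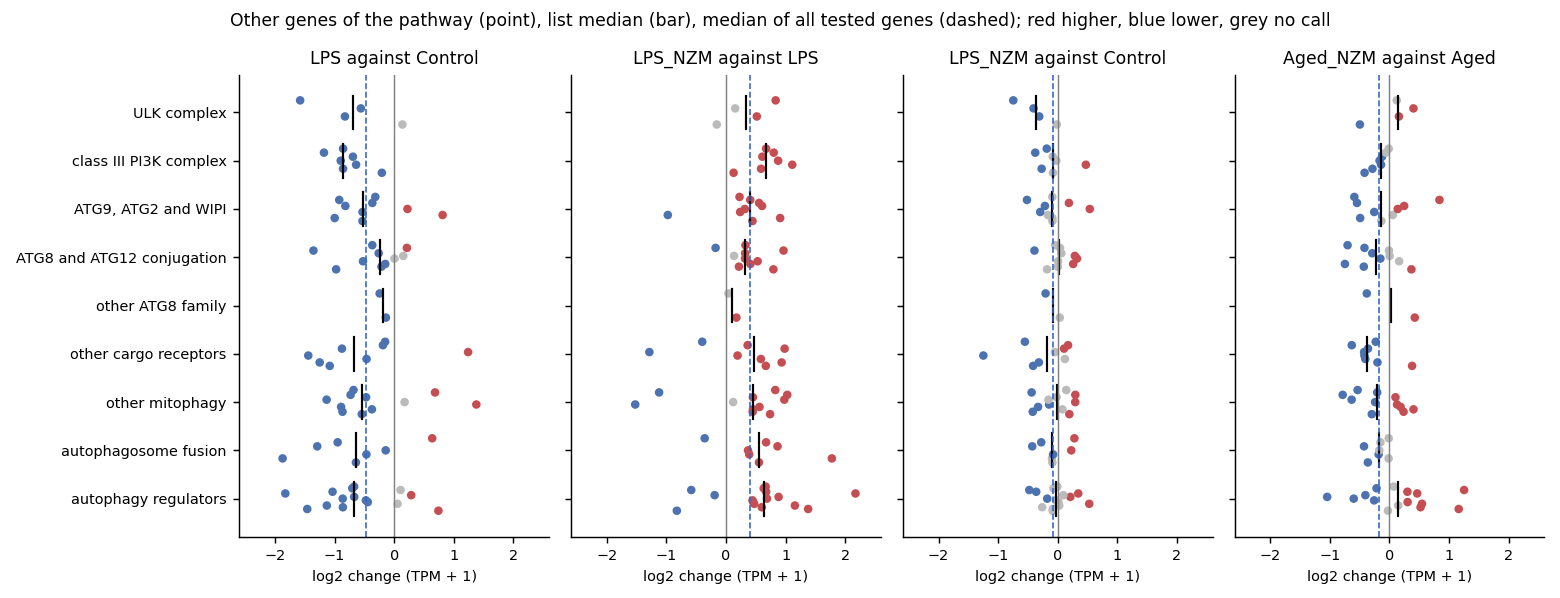
Log2 change of log2(TPM + 1) (horizontal axes) of the 73 other tested pathway genes (points) by list in 4 comparisons, with the list median (bar) and the median of all tested genes (dashed). Most points lay left of 0 in LPS against Control and right of 0 in LPS_NZM against LPS, around the dashed line, and Marchf5 lay farthest from that line in both.

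The responses to NZM in the 2 cell types were compared directly as the change in Aged_NZM against Aged minus that in LPS_NZM against LPS, in 1 fit of all 15 libraries. In this comparison 72% of all tested genes were called, or 68.6% after centring. Of the 10 genes 4 had a higher value in BMSC (17.2% of all tested genes) and 5 a lower one (54.8%). The scale matters here, since the median difference of all genes was -0.45 as deposited and 0.17, on the other side, after centring. After centring 8 of the 10 genes were higher (39.9%) and 1 lower (28.7%). The largest difference was that of Bnip3 (log2 change 2.02, SE 0.11, adjusted p = 8.09e-10), which rose by 0.51 in BMSC and fell by 1.51 in BMDM. Atg7 differed in the other direction (log2 change -1.70, SE 0.07, adjusted p = 4.92e-11), and it kept its call after centring (-1.08). Sqstm1 fell in both, less in BMSC (log2 change 0.68, SE 0.04, adjusted p = 3.42e-10, or 1.31 after centring). Optn (1.08, or 1.70 after centring) and Map1lc3a (0.76, or 1.38) also had higher values in BMSC on both scales. Gabarapl1 (-0.69) lost its call after centring. Map1lc3b (-0.36), Becn1 (-0.38) and Ulk1 (-0.42) reversed, to 0.27, 0.24 and 0.20, beside 0.17 for all genes. The log2 change of Pink1 as deposited was 0.65 in BMSC and 0.65 in BMDM (difference 0.0028, 95% interval -0.19 to 0.20, adjusted p = 0.98), and its difference was 0.63 after centring (adjusted p = 2.94e-05). The cell types also differed in their model drug, and cell type and drug cannot be told apart.

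**Figure D5:**
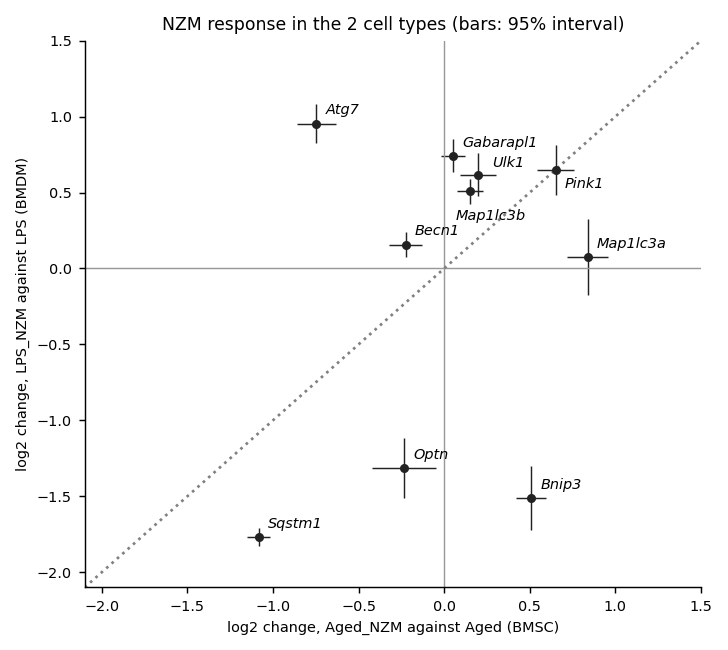
Log2 change with NZM in BMSC (Aged_NZM against Aged, horizontal axis) and in BMDM (LPS_NZM against LPS, vertical axis) for the 10 genes, with 95% intervals and the line of equal change (dotted). Bnip3 (0.51 and -1.51) and Atg7 (-0.75 and 0.95) had opposite signs in the 2 cell types, Becn1 did so by less (-0.22 and 0.16), and Pink1 lay on the line as deposited.

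Across the 5 groups the genes fell into different orders. Bnip3, Map1lc3a, Map1lc3b, Gabarapl1 and Ulk1 were highest in Aged_NZM and then Aged, with no overlap between BMSC and BMDM libraries. Pink1 was also highest in Aged_NZM, but Aged overlapped Control. Sqstm1 was highest in LPS and then Aged, Aged_NZM overlapped Control, and LPS_NZM was lowest. Atg7 was lowest in LPS and then Aged_NZM, with no overlap between neighbours in its order of Aged, Control, LPS_NZM, Aged_NZM and LPS. For Becn1 neighbouring groups overlapped except Control above LPS, and for Optn they overlapped except LPS above Aged and LPS_NZM above Aged_NZM. Levels between the cell types were not tested, since no group shared a treatment.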

How the data were processed

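The authors deposited TPM values for all libraries in 1 table. Per the submitters' processing notes the tools were RSEM, StringTie, HISAT2 and fastp and the build was GRCm39, with no versions or roles given, and the gene annotation is not given in the sources used here. Symbols came from a GENCODE M21 name table that matched 52072 of 56979 identifiers, and Marchf5 was matched through an older symbol. Tests used limma 3.58.1 (R 4.3.3) on log2(TPM + 1) (trend, two-sided, Benjamini-Hochberg over all genes of a comparison). A gene was tested at a TPM of at least 1 in at least 3 libraries of the fit. The 9 BMDM libraries, the 6 BMSC libraries and, for the difference of NZM responses, all 15 libraries were fitted together. Of replicate pairs within a group, 0.240% to 0.497% of values were identical, and no pair looked like 1 library deposited in duplicate. The members and lists were chosen with earlier results of these data known. Besides all members, up to 2 genes per list and comparison are named, those with the largest called change whose higher group averaged 5 TPM or more. Bnip3l and Tax1bp1 in LPS against Control fall outside that rule. Tests were checked on simulated data with 200 changed genes, as many higher as lower, and no shift of scale. That check does not cover the shifts of the median gene seen here. Alternatives comprised both other scalings, the pseudocount, filters, trend, replicate block, libraries in the fit, a minimum change and left-out libraries. Figures used matplotlib 3.10.9.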

Additional observations from a re-analysis of the deposited data

Results flagged for a closer look

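The response to NZM differed between BMSC and BMDM for 9 of the 10 genes by the direct test of the difference in limma. The difference, BMSC minus BMDM on the log2 scale, was 2.02 for Bnip3 (adjusted p = 8.09e-10), 1.08 for Optn (adjusted p = 2.54e-06), 0.76 for Map1lc3a (adjusted p = 0.000188) and 0.68 for Sqstm1 (adjusted p = 3.42e-10). It was -1.70 for Atg7 (adjusted p = 4.92e-11), -0.69 for Gabarapl1 (adjusted p = 9.63e-08), -0.42 for Ulk1 (adjusted p = 0.000166), -0.38 for Becn1 (adjusted p = 1.17e-05) and -0.36 for Map1lc3b (adjusted p = 8.29e-06). Of all tested genes 72% were called in this comparison. After centring, Ulk1, Becn1 and Map1lc3b were called in the other direction (0.20, 0.24 and 0.27). The centred median difference of all genes was itself 0.17. Under quantile normalization Ulk1 was called in that direction too (0.29, adjusted p = 0.00503). Becn1 (0.0947, adjusted p = 0.119) and Map1lc3b (-0.0016, adjusted p = 0.978) had no call under that setting. Gabarapl1 lost its call after centring and Pink1 gained one (0.63). Bnip3, Optn, Map1lc3a, Sqstm1 and Atg7 kept their direction and call after centring. For Bnip3 and Atg7 the NZM change itself was called in opposite directions in the 2 cell types on both scales. All 3 NZM libraries lay on the stated side of all 3 libraries without NZM for Bnip3 and Atg7 in each cell type.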

How the results depend on the processing

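Of the values of single genes under another setting, 403 kept their direction and side of the threshold, 53 lost and 7 gained a call and 17 reversed, and with a library left out the numbers were 336, 12, 3 and 9. Median centring gave 3 lower in LPS against Control, 2 higher and 5 lower in LPS_NZM against LPS, 2 higher and 2 lower in LPS_NZM against Control, 2 lower in Aged_NZM against Aged, and 8 higher and 1 lower for the difference of NZM responses. Quantile normalization gave 5 lower in LPS_NZM against LPS, 0 higher in LPS_NZM against Control, 2 lower in Aged_NZM against Aged and 2 lower for the difference. At an absolute log2 change of at least 1, the genes called in the order of the text were 3516, 3232, 651, 1089 and, for the difference, 5520. The 10 genes then had 1 lower in LPS against Control, 0 higher in LPS_NZM against LPS, 0 higher and 0 lower in LPS_NZM against Control, 0 higher and 1 lower in Aged_NZM against Aged, and 2 higher and 1 lower for the difference. The last setting calls fewer genes by construction.
Reversed under centring and under quantile normalization were Map1lc3a (0.17 and 0.12) and Becn1 (0.43 and 0.18) in LPS against Control, Map1lc3a (-0.39 and -0.37) and Becn1 (-0.31 and -0.12) in LPS_NZM against LPS, Optn (0.0578 and 0.0729) in LPS_NZM against Control, and Becn1 (0.24 and 0.0947) and Ulk1 (0.20 and 0.29) for the difference. Centring alone reversed Map1lc3b in LPS_NZM against Control (0.0174) and for the difference (0.27), and a pseudocount of 0.1 turned Pink1 to -0.0148 for the difference. The cause was not tested. With a library left out, Map1lc3a in LPS_NZM against LPS ranged from -0.0028 to 0.22, Optn in LPS_NZM against Control from -0.13 to 0.0284, and Pink1 for the difference from -0.0273 to 0.0545. The lower count in LPS_NZM against Control ranged from 3 to 6, with 3 without Control replicate 2. The Bnip3 call there was also lost under quantile normalization (adjusted p = 0.057), with no filter (0.0721) and with only the compared groups (0.0537), and Map1lc3a gained a call there at a TPM of at least 5 (0.041) and in the fit of all 15 libraries (0.0223). The Optn call in Aged_NZM against Aged was lost with no filter (adjusted p = 0.0804).
Deviations of libraries with the same replicate number correlated from -0.08 to 0.20 in BMDM (9 pairs), against -0.18 to 0.10 with different numbers (18 pairs). In BMSC they correlated from -0.04 to 0.01 (3 pairs), against -0.05 to 0.06 (6 pairs). Between Control and LPS_NZM the same number gave 0.15, 0.02 and 0.20, against -0.18 to 0.05 for different numbers. These ranges do not settle whether the libraries were paired by number. A replicate block gave 11683, 11089, 6681, 9688 and 11963 genes called, and among the 10 genes it changed calls only in LPS_NZM against Control, for Map1lc3a (adjusted p = 0.0283) and Bnip3 (adjusted p = 0.0503). TPM gives no depth, so counting error could not be set beside the spread of 3 libraries.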
